A study of Rattus norvegicus with 6 samples.

Results

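The genes described here are 9 markers of reactive or immature glia, chosen by symbol: Gfap, Vim, Nes, Cd44, S100b, Aldoc, Clu, Sox9 and Fabp7. All 9 were found, each as 1 row, among 32662 rat genes in the deposited table. The cells were primary oligodendrocyte precursors, which divide and mature into oligodendrocytes, cultured from cerebral cortex of 1 to 2 day old rats (Sprague-Dawley). Every culture, controls included, came from mixed glia grown with 20% fetal bovine serum, from which the non-adherent cells were taken and kept for 4 to 5 days with B27 (2%) and the growth factors PDGF and FGF, both at 10 ng/ml. The fibril group (3 libraries) was exposed for 72 hours to fibrils preformed from human alpha-synuclein, which forms inclusions in oligodendrocytes of patients with multiple system atrophy. The control group (3 libraries) carries the treatment label Control, and the labels do not say what these cells received in place of fibrils, or whether replicates are separate cultures or animals. The p-values below therefore measure only the spread between these libraries, which may be technical.

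Astrocytes build their cytoskeleton from intermediate filaments, of which glial fibrillary acidic protein (Gfap), vimentin (Vim) and nestin (Nes) are the main ones, and nestin and vimentin mark immature glia before Gfap appears. After injury or inflammation astrocytes become reactive, a state classically recognised by more Gfap, vimentin and the hyaluronan receptor Cd44. Several of these genes are shared with the oligodendrocyte lineage: precursor cells can express vimentin, S100b, Sox9 and Fabp7, and cultured precursors can turn into Gfap-positive astrocytes when serum or BMP is present.

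Values are FPKM (fragments normalised to gene length and to the mapped fragments of the library), so levels of different genes can be compared. The 2 replicate 1 libraries stood apart: mitochondrial genes held 80.3% (control) and 75.6% (fibril) of the FPKM total, against 12% to 40.1% in the other 4. The number of fragments is unknown, but low values were coarser in replicate 1, where the 5th percentile of values above 0 was 0.321 FPKM (control) and 0.462 FPKM (fibril), against 0.0797 to 0.153 FPKM elsewhere. Precursor markers were abundant: 11 of 12 list members were in the table, all above 0 and tested, and their summed level was 1790 to 2891 FPKM in controls and 1389 to 1968 FPKM with fibrils. Hprt1 and Rps6, which every cell uses, were listed at 0 in all 6 libraries, so an exact 0 can be a failed estimate. In bulk RNA, a change in the number of cells of a type and a change in RNA per cell cannot be told apart.

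Differences were tested on log2(FPKM + 1) with limma over 10766 genes, those with at least 3 libraries at 1 FPKM or above. All 9 genes passed that filter, but Gfap passed only through its 3 fibril libraries, so its presence among tested genes already required a difference. Of the 9, 0 passed an adjusted p of 0.05 by limma, where the share over all tested genes was 0%. With the replicate number as a block, again 0 of 9 passed, against 0.111% of tested genes that passed as higher and 0% as lower. At an unadjusted p under 0.05, limma gave 2 of the 9 (Gfap and Cd44) against 4.02% of all tested genes, and 3 with the block (Sox9 in addition) against 9.84%. The fibril libraries lay above all controls for 2 of 9 genes, against 4.24% of tested genes, and below all controls for 0 of 9, against 5.3%. The 2 genes without overlap were Gfap and Cd44. Their separation already fixed a positive difference within every replicate number, so matching libraries by number adds no further evidence on direction for them. The log2 difference was positive for 6 of 9, against 47% of tested genes. The median log2 difference was 0.36 over the 9 genes and -0.04 over all tested genes, and without fibril replicate 3 the median of the 9 was -0.18.

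**Figure D1:**
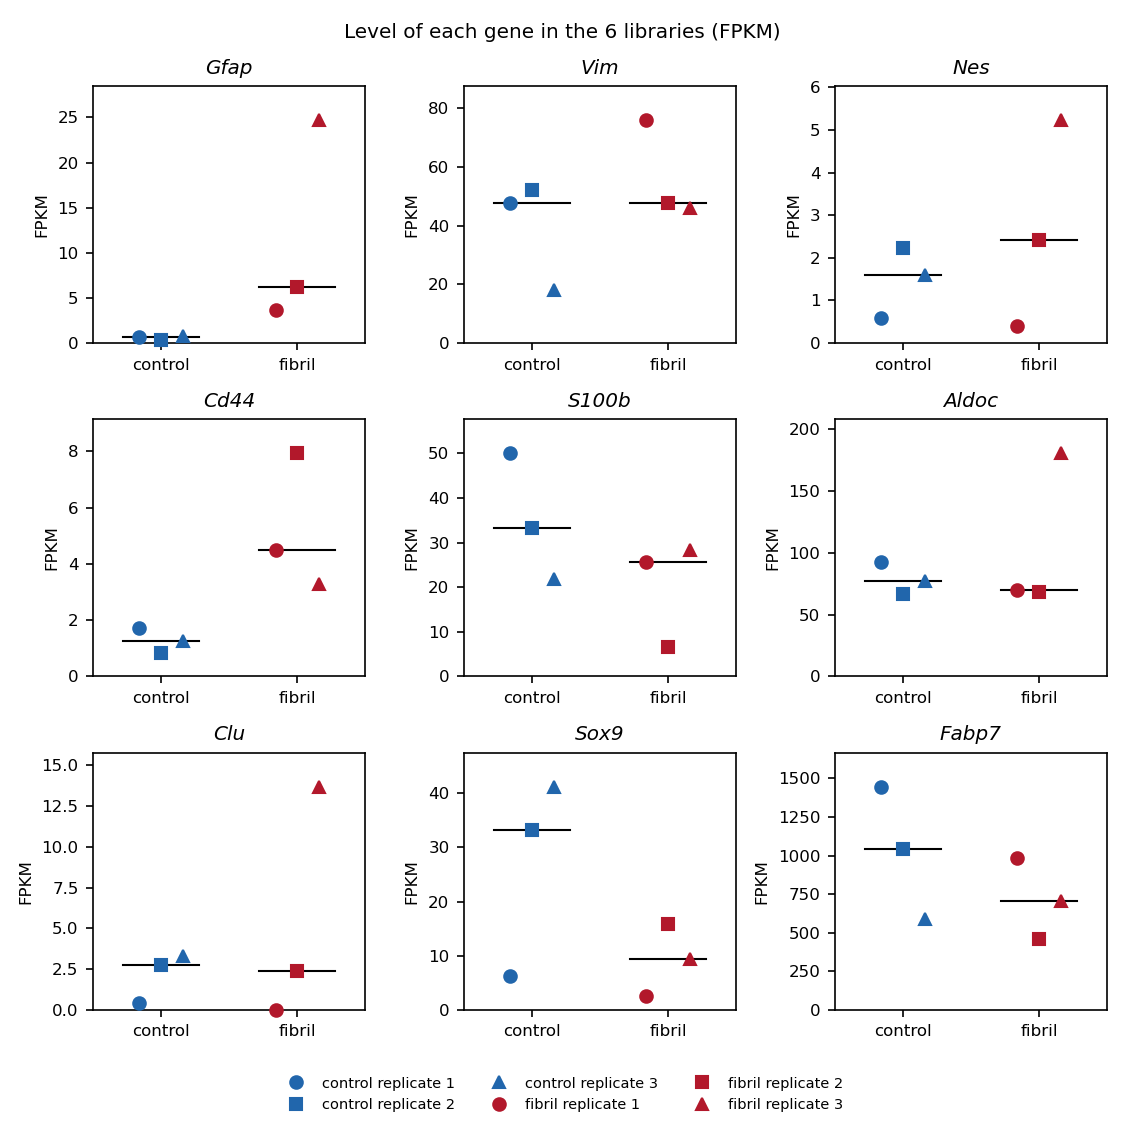
FPKM of each of the 9 genes (vertical axis, linear from 0, a separate scale per gene) in the control (blue) and fibril (red) libraries, with a marker shape per replicate number and a line at the median of each group. Gfap and Cd44 are the genes in which all 3 fibril points lie above all 3 control points, and Clu is listed at 0 in fibril replicate 1.

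Gfap, the intermediate filament that defines astrocytes, differed most. It is ENSRNOG00000002919 on chromosome 10 (90990761 to 90999435 in the deposited table, whose genome build is not given in the sources used here). It had 0.643, 0.37 and 0.733 FPKM in control replicates 1, 2 and 3, and 3.69, 6.20 and 24.8 FPKM in fibril replicates 1, 2 and 3. The groups did not overlap, and fibril replicate 3 was far above the other fibril libraries. The group means were 0.582 ± 0.189 FPKM and 11.6 ± 11.5 FPKM (SD, n = 3 each), a 19.9-fold ratio that rests largely on fibril replicate 3. Within replicate numbers the fibril to control ratios were 5.74, 16.8 and 33.8. The log2 difference was 2.60 (SE 0.61, 95% interval 1.21 to 3.99), the 22nd highest among 10766 genes, with a limma adjusted p of 0.564 and 0.147 with the block. Among genes above 0 in the same library, Gfap lay at percentiles 11, 15 and 20.7 in the controls and 35.1, 51.5 and 78.3 with fibrils, so its rank was higher in each fibril library than in any control. With a pseudocount of 5 its log2 difference was 1.35.

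For Vim and Nes, the filaments of immature glia, the control and fibril libraries overlapped. Vim (ENSRNOG00000018087, chromosome 17, 80882665 to 80891212) had 47.6, 52.0 and 18.0 FPKM in the controls against 76.2, 47.8 and 46.0 FPKM in the fibril libraries. Its groups overlapped and their medians were almost equal (47.6 and 47.8 FPKM). The log2 difference was 0.62 (95% interval -0.52 to 1.75, limma adjusted p = 0.96), 0.14 without control replicate 3, the library with the lowest value, 0.39 without fibril replicate 1 and 0.32 when scaled without mitochondrial genes. Nes (ENSRNOG00000018681, chromosome 2, 187344055 to 187352969) was low throughout, with 0.576, 2.22 and 1.58 FPKM in the controls against 0.396, 2.42 and 5.25 FPKM in the fibril libraries. Both replicate 1 libraries were the lowest for Nes, and its log2 difference of 0.40 (95% interval -0.93 to 1.72) became -0.11 without fibril replicate 3. These intervals include both no difference and a difference of more than 1 on the log2 scale.

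Cd44, a surface receptor for hyaluronan, was the other gene whose groups did not overlap. It is ENSRNOG00000006094 on chromosome 3 (92696312 to 92783658). It had 1.73, 0.825 and 1.25 FPKM in the controls against 4.49, 7.94 and 3.28 FPKM in the fibril libraries. The highest value was in fibril replicate 2, whereas Gfap was highest in fibril replicate 3. The means were 1.27 ± 0.451 and 5.24 ± 2.42 FPKM (SD, n = 3 each), a 4.13-fold ratio, and the ratios within replicates 1, 2 and 3 were 2.60, 9.62 and 2.62. The log2 difference was 1.41 (SE 0.42, 95% interval 0.45 to 2.36), the 152nd highest of 10766, with a limma adjusted p of 0.96 and 0.375 with the block. With a pseudocount of 5 it was 0.68.

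The first 300 bases around the annotated start (250 before and 50 after it) are shown for Gfap and Cd44, whose groups separated, and for Vim, the filament gene whose groups overlapped. They are RefSeq sequences on build GRCr8, given 5′ to 3′ in the direction of the gene, with motif matches in capitals. Gfap lies at chr10:88361612-88361911 (minus strand), Cd44 at chr3:109699375-109699674 (minus strand) and Vim at chr17:81577011-81577310 (plus strand).
Gfap: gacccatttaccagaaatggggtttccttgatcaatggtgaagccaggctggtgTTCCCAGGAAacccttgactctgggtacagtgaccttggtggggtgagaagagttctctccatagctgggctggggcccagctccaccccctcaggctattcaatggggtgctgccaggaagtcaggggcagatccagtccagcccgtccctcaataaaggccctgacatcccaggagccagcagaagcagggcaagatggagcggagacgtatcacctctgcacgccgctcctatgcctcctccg
Cd44: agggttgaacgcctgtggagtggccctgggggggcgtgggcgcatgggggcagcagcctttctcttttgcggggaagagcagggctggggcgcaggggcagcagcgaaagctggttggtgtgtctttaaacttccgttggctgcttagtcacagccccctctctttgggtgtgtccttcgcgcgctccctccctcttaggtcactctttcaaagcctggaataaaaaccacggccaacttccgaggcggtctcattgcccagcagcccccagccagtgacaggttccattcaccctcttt
Vim: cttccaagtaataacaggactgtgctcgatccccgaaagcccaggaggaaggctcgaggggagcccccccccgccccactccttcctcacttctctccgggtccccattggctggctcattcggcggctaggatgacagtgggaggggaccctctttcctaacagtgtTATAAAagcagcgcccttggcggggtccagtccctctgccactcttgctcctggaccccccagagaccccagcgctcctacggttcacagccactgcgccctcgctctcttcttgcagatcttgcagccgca
Both strands were searched for 5 motifs. Paired half-sites of STAT factors were searched as TTCNNNGAA and as TTCNNNNGAA, and the other searches were GGGNNTTTCC for NF-kB, TGANTCA for AP-1 and TATAAA for the TATA box. The capitals in Gfap are 1 match to TTCNNNNGAA, 196 to 187 bases before the start. That motif occurred in 7.28% of 33469 promoters of the same length and in 1 of the 7 member genes with a promoter in the RefSeq set (Clu and Sox9 were not matched). The capitals in Vim are 1 match to the TATA box letters, 82 to 77 bases before the start, which 14.2% of promoters hold. The Cd44 window had 0 matches. The other STAT spacing, the NF-kB form and AP-1 matched 0 of the 7 member promoters, against 8.87%, 1.53% and 7.33% of all. These are matches of letters in a short window and describe no binding.

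S100b, Aldoc and Clu are proteins that astrocytes make in quantity, and none of the 3 separated the groups. S100b (ENSRNOG00000001295, chromosome 20, 13130635 to 13142856), a calcium-binding protein also made by oligodendrocyte lineage cells, had 50.05, 33.2 and 21.7 FPKM in the controls against 25.6, 6.69 and 28.4 FPKM in the fibril libraries. It was lower with fibrils in replicates 1 and 2 and higher in replicate 3, with a log2 difference of -0.91 (95% interval -2.24 to 0.43, limma adjusted p = 0.96) that became -0.29 without fibril replicate 2. Aldoc (ENSRNOG00000011452, chromosome 10, 65586503 to 65590126), the brain form of the glycolytic enzyme aldolase, had 92.8, 66.6 and 77.4 FPKM against 69.7, 68.2 and 181 FPKM. Its 5 other libraries lay within a narrow band and fibril replicate 3 stood alone, and the log2 difference of 0.28 (95% interval -0.83 to 1.39) became -0.18 without it. Clu (ENSRNOG00000016460, chromosome 15, 42640145 to 42665857), which encodes the secreted chaperone and lipid carrier clusterin, had 0.452, 2.75 and 3.28 FPKM against 0, 2.39 and 13.7 FPKM. Clu was lowest in both replicate 1 libraries and highest in fibril replicate 3. Its log2 difference of 0.36 (95% interval -1.67 to 2.39) became -0.63 without fibril replicate 3 and -0.21 with a pseudocount of 0.1.

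Sox9 and Fabp7 had lower group means with fibrils. Sox9 (ENSRNOG00000002607, chromosome 10, 101288488 to 101293379), a transcription factor of glial progenitors that astrocytes keep and oligodendrocytes lose, had 6.35, 33.3 and 41.2 FPKM in the controls against 2.59, 15.9 and 9.33 FPKM in the fibril libraries. The groups overlapped through control replicate 1, which lay below fibril replicates 2 and 3, but Sox9 was lower with fibrils in 3 of 3 replicate numbers, by 2.45, 2.09 and 4.42 times, where 19.3% of tested genes were lower in all 3. The log2 difference was -1.36 (95% interval -3.12 to 0.40), and with the block the interval was -2.14 to -0.59, the limma adjusted p being 0.96 and 0.308. Leaving out single libraries moved it from -0.73 (without fibril replicate 1) to -2.15 (without control replicate 1). Fabp7 (ENSRNOG00000000814, chromosome 20, 40769585 to 40773349), a fatty acid carrier of radial glia and precursor cells, had 1448, 1046 and 586 FPKM against 983, 462 and 704 FPKM. It was lower with fibrils in replicates 1 and 2 and higher in replicate 3, with a log2 difference of -0.49 (95% interval -1.91 to 0.93). Leaving out single libraries moved it from -0.19 (without control replicate 1) and -0.21 (without fibril replicate 2) to -0.75 (without fibril replicate 1) and -0.85 (without control replicate 3), and it was -1.08 with quantile normalization and -0.80 when scaled without mitochondrial genes.

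**Figure D2:**
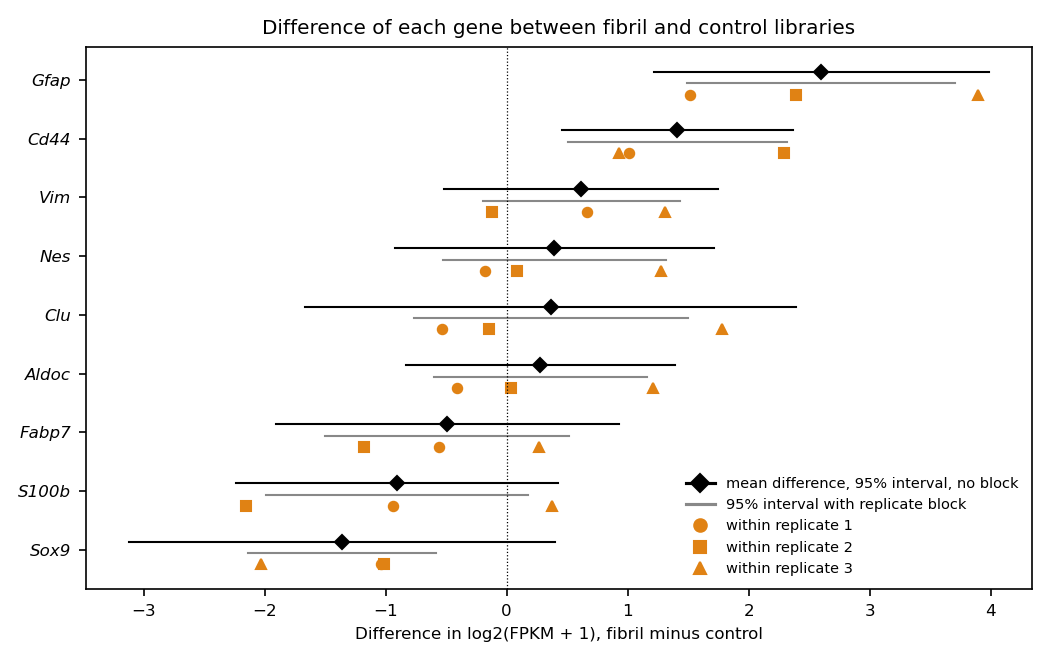
Difference in log2(FPKM + 1), fibril minus control, for the 9 genes: black diamonds and lines are the mean difference with its 95% interval from limma, grey lines the interval with the replicate block, and orange markers the difference within each replicate number. The Gfap and Cd44 intervals lie above 0 without a block, and the Sox9 interval lies below 0 with the block only, while 0 of the 9 passed after adjustment over all genes.

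Ordered by the median FPKM of the controls, the genes ran Fabp7 (1046), Aldoc (77.4), Vim (47.6), Sox9 (33.3), S100b (33.2), Clu (2.75), Nes (1.58), Cd44 (1.25) and Gfap (0.643). Fabp7 was among the most abundant transcripts, at percentiles 99.0 to 99.7 of detected genes in the 6 libraries. The control ranges of Fabp7 and of Aldoc did not overlap that of the next gene. Those of Vim, Sox9 and S100b overlapped from neighbour to neighbour, as did those of Clu, Nes and Cd44, with a gap between S100b and Clu. Gfap lay below Cd44 without overlap. With fibrils the order was Fabp7 (704), Aldoc (69.7), Vim (47.8), S100b (25.6), Sox9 (9.33), Gfap (6.20), Cd44 (4.49), Nes (2.42) and Clu (2.39). From S100b down to Clu each neighbouring pair overlapped in range, so in the fibril group Gfap could not be placed apart from Sox9 or Cd44.

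For 4 pairs of genes the log2 ratio of (FPKM + 0.1) within each library was compared with an exact permutation test, for which 3 libraries against 3 cannot go below p = 0.1. The log2 ratio of Gfap to Vim was -6.01, -6.79 and -4.44 in controls and -4.33, -2.93 and -0.89 with fibrils. The groups did not overlap, though control replicate 3 and fibril replicate 1 were close, and the difference was 3.03 (exact permutation p = 0.1, two-sided). With a pseudocount of 1 the groups overlapped, control replicate 3 (-3.45) lying above fibril replicate 1 (-4.04), and the difference was 1.98 (exact permutation p = 0.2). Cd44 to Vim gave -4.71, -5.82 and -3.74 against -4.06, -2.57 and -3.77, which overlapped, with a difference of 1.29 (exact permutation p = 0.3) that was 0.79 with a pseudocount of 1, 0.76 without control replicate 2 and 0.84 without fibril replicate 2.

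The aldolase pair gave the tightest separation of the 4. The log2 ratio of Aldoc to Aldoa, the aldolase used by most cells, was -1.37, -1.34 and -1.46 in controls and -2.37, -2.11 and -2.55 with fibrils. The means were -1.39 ± 0.063 and -2.34 ± 0.223 (SD, n = 3 each), a difference of -0.96 (exact permutation p = 0.1), and the differences within replicates 1, 2 and 3 were -1.002, -0.77 and -1.09. Aldoa itself had 240, 168 and 213 FPKM against 361, 295 and 1059 FPKM (log2 difference 1.23, limma adjusted p = 0.96), so the brain form made up a smaller part of aldolase transcripts in the fibril libraries while its own level overlapped.

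Sox9 to Sox10, the related factor that the oligodendrocyte lineage keeps, had log2 ratios of -4.39, -2.37 and -2.71 in controls and -6.10, -3.64 and -5.14 with fibrils. The groups overlapped (exact permutation p = 0.2) and the differences within replicates 1, 2 and 3 were -1.71, -1.27 and -2.43. Sox10 had 135, 173 and 270 FPKM against 185, 200 and 332 FPKM, and was higher with fibrils in each replicate number. Adjusted over the 4 ratios, the smallest possible p of 0.1 becomes 0.2. Paired by replicate number, an exact sign-flip test of 3 pairs cannot go below p = 0.25, the value for all ratios but Cd44 to Vim (0.5).

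**Figure D3:**
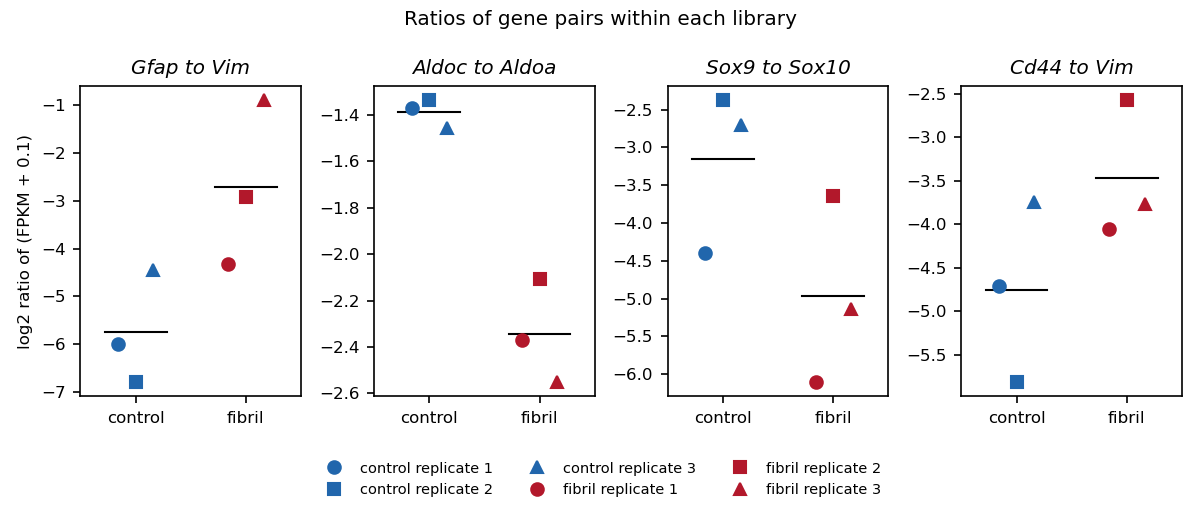
log2 ratio of (FPKM + 0.1) for 4 gene pairs (a separate vertical axis per pair) in the control (blue) and fibril (red) libraries, with a marker shape per replicate number and a line at each group mean. Gfap to Vim is higher and Aldoc to Aldoa lower in every fibril library than in any control, and the other pairs overlap.

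Of 17 intermediate filament genes found, Gfap, Vim and Nes included, 10 were tested, with 5 positive and 5 negative differences. Besides Gfap, Vim and Nes, 2 (Lmna and Sync) were positive and 5 negative, with a median of -0.26, and 0 had an unadjusted limma p under 0.05 (1, Lmna, with the block). The 10 had a median of 0.12, and 0 past the threshold by limma with or without the block. At an unadjusted p under 0.05 there was 1 without the block and 2 with it, against 4.02% and 9.84% of tested genes. The median of the 10 turned to -0.13 when values were scaled without mitochondrial genes and to -0.06 without fibril replicate 3. Lmna, a nuclear lamin, had 6.30, 5.60 and 10.6 FPKM against 6.22, 12.6 and 71.1 FPKM, again with fibril replicate 3 alone at the top. Sync, a muscle filament partner, had 0.809, 1.27 and 1.26 FPKM against 1.86, 1.74 and 2.62 FPKM, and Nefl, a neurofilament, had 3.87, 1.98 and 4.05 FPKM against 0.869, 1.83 and 2.19 FPKM. Krt8, Krt18 and Krt19, the keratins of simple epithelia, were listed at 0 in all 6 libraries.

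The difference of Gfap was opposite in sign to those of all tested genes in a list of mature astrocyte markers. Gfap passed the filter only through its fibril libraries, so its own positive sign was already fixed. Of the astrocyte proteins outside that list described above, Aldoc (0.28) and Clu (0.36) were positive and S100b (-0.91) negative, and Aldoc and Clu turned negative without fibril replicate 3. All 13 tested genes of that list had negative differences, with a median of -1.40 against -0.04 for all tested genes, and 8 of the 13 lay below all controls in every fibril library, against 5.3% of tested genes. Slc4a4, counted in both, passed the filter only through its control libraries, so its sign and lack of overlap were already fixed. By limma 0 of the 13 passed with or without the block. In either fit 10 had an unadjusted p under 0.05, against 4.02% of tested genes without the block and 9.84% with it. The median within replicates 1, 2 and 3 was -1.27, -1.49 and -1.47, and all 13 were also negative with replicates 2 and 3 only. The list's summed level was 238 to 348 FPKM in controls and 88.0 to 118 FPKM with fibrils, and its connexin gene Gjb6 was listed at 0 in all 6 libraries.

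Slc4a4, a bicarbonate transporter, had a log2 difference of -1.91 (SE 0.39) and Sparcl1, a secreted synapse protein of astrocytes, one of -2.23 (SE 0.54). Ndrg2, a cytosolic astrocyte marker, had 34.4, 16.6 and 11.9 FPKM in the controls against 5.07, 2.10 and 8.18 FPKM in the fibril libraries. Slc1a3, a glutamate transporter also used by radial glia, had a log2 difference of -1.40 (SE 0.45). Among the fibril libraries, Ndrg2, Sparcl1, Slc1a3, Glul and Mlc1 were highest in replicate 3, where Gfap was highest too. Slc4a4 (0.824 FPKM, against 0.132 and 0.154 FPKM in replicates 2 and 3), Aqp4, Atp1b2 and Gja1 were highest in replicate 1. Fgfr3, Kcnj10, Slc1a2 and Slc6a11 were highest in replicate 2.

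**Figure D4:**
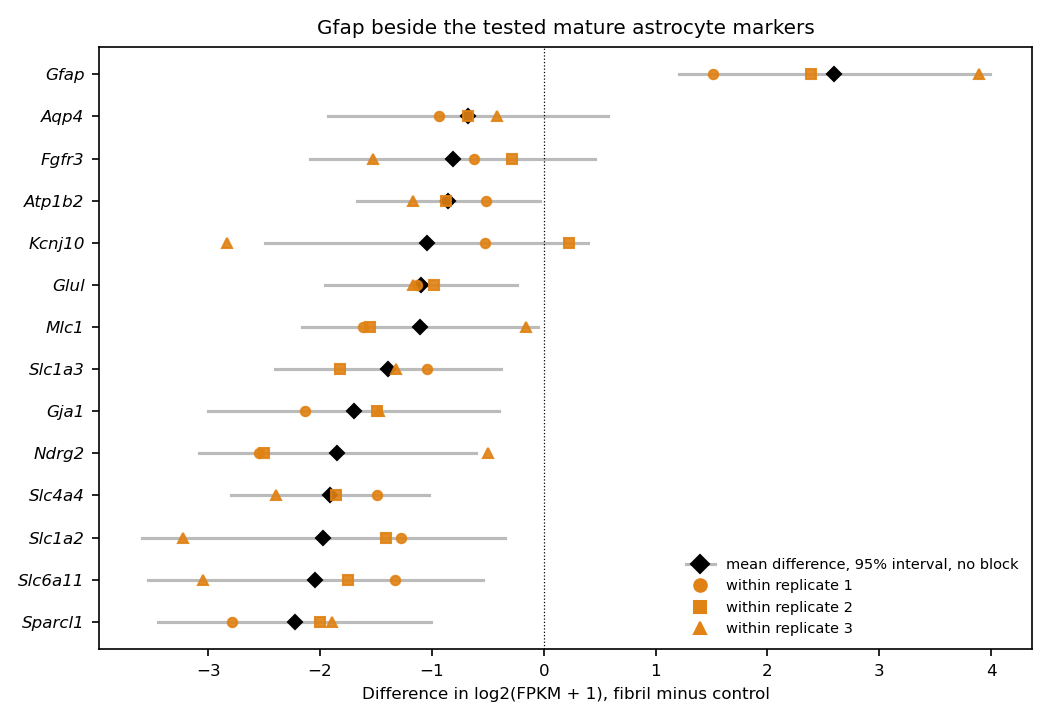
Difference in log2(FPKM + 1), fibril minus control, for Gfap and the 13 tested mature astrocyte markers: black diamonds are mean differences, grey lines their 95% intervals from limma without a block, and orange markers the differences within each replicate number. Gfap lies at 2.60 and the 13 markers lie between -2.23 (Sparcl1) and -0.68 (Aqp4).

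Genes that reactive astrocytes are known to raise were mostly at or near 0. Of 29 list members found, 23 were below the filter. Those that passed include Lcn2 and Cd14, which did so only through their fibril libraries. Over the 27 members above 0 in any library, fibril values lay above all controls for 7 and below for 2, where 3.71% and 4.7% of all genes above 0 did so. The 7 were Lcn2, Cd14, S100a10, Cxcl10, Gbp2, Serping1 and Steap4, several of which myeloid cells also make, and the 2 were Amigo2 and Tgm1. Of these, Cxcl10, Gbp2, Serping1, Steap4, Amigo2 and Tgm1 were below the filter and were chosen for mention after their values were seen. Lcn2, encoding lipocalin 2, passed with the block alone (log2 difference 3.82, limma adjusted p = 0.0435, and 0.105 without it). Cp, encoding the copper carrier ceruloplasmin, had a log2 difference of 0.19.

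S100a10, the partner of annexin A2, had 19.9, 24.7 and 11 FPKM in the controls against 57.4, 35.8 and 35.7 FPKM in the fibril libraries, a log2 difference of 1.20 (SE 0.43, limma adjusted p = 0.96). It therefore lay on the opposite side from S100b. Of 7 tested S100 genes 3 were positive and 4 negative, and 0 passed by limma with or without the block. In either fit 3 had an unadjusted p under 0.05, against 4.02% of tested genes without the block and 9.84% with it. S100a3 had 0.973, 4.09 and 4.63 FPKM against 6.03, 7.74 and 10.6 FPKM, while S100a16 had 6.83, 6.29 and 4.92 FPKM against 1.82, 1.74 and 3.67 FPKM. Neither pair of groups overlapped.

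Of 14 tested radial glia and immature glia genes, 10 were negative, against 53% of all tested genes. The median of the 14 was -0.44 (-0.66 with replicates 2 and 3 only, -0.67 when scaled without mitochondrial genes). By limma 0 passed with or without the block. An unadjusted p under 0.05 was reached by 2, and by 4 with the block, against 4.02% and 9.84% of tested genes. Hes1, a Notch target, had 4.54, 6.12 and 4.83 FPKM in the controls against 0.712, 1.89 and 3.05 FPKM in the fibril libraries, without overlap. Pax6, a neural progenitor factor, had 1.53, 4.29 and 3.76 FPKM against 0, 2.32 and 0.912 FPKM. Ptprz1, a receptor phosphatase of precursors and radial glia, had 111, 137 and 302 FPKM against 91.7, 115 and 32.9 FPKM.

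Families and partners of the other genes gave few separations. Among fatty acid carriers, Fabp5 had 144, 217 and 144 FPKM against 197, 186 and 437 FPKM, Fabp3 0.835, 10.1 and 1.44 FPKM against 2.91, 2.29 and 4.74 FPKM, and 7 of 10 were below the filter. Of the 5 Sox genes of the SoxE and SoxD groups 4 were negative; Sox6 had 39.8, 50.2 and 98.8 FPKM against 26.1, 63.1 and 5.49 FPKM. Of 15 Cd44 ligands and partners 7 were tested, 2 positive, and 0 had an unadjusted limma p under 0.05. The linker genes Rdx and Ezr, which tie Cd44 to actin, had log2 differences of -0.81 and -0.46. Of 6 tested lipid carriers 2 were positive. Apod had 79.1, 19.3 and 26.1 FPKM against 108, 57.1 and 195 FPKM, higher with fibrils in each replicate number. The cytokine pathway through gp130 and STAT3, a known inducer of Gfap, had 10 of 17 genes tested, 5 positive, with 0 at an unadjusted limma p under 0.05. Its receptor genes Il6st and Lifr had log2 differences of -0.95 and -0.79, and its kinase genes Jak1 and Jak2 -0.57 and -0.39. Junb, Socs3 and Stat3 had 0.50, 0.43 and 0.34, though Socs3 and Stat3 were lower with fibrils in replicate 3.

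Markers of other cell types were counted in the same way. Of 14 microglia and macrophage markers found, 9 were tested, 6 positive against 47% of all tested genes, with 0 passed by limma with or without the block. Their summed level by library was 15.6, 76.0 and 16.4 FPKM in the controls against 23.6, 107 and 66.4 FPKM in the fibril libraries, which overlapped. Cx3cr1 was listed at 0 in 5 of the 6 libraries, and 3 of the 9 tested were negative. The 4 with the smallest limma p, Cd14, Tyrobp, Fcer1g and Cd68, had log2 differences of 2.3, 2.2, 1.9 and 1.1. Cd14 passed the filter only through its fibril libraries. An unadjusted limma p under 0.05 was reached by 2 of the 9, and by 4 with the block, against 4.02% and 9.84% of tested genes. Cd44, which myeloid cells also express, was highest in fibril replicate 2, as was the summed level of these markers. Control replicate 2 had a higher sum than fibril replicates 1 and 3 and the lowest Cd44. Single markers differed from the sum. Cd14 had 0.260 FPKM in control replicate 2 against 2.39 and 3.23 FPKM in fibril replicates 1 and 3, and Tyrobp 4.48 FPKM against 1.93 and 8.76 FPKM. Differentiating oligodendrocyte markers were all positive (9 of 9 tested, median 1.72), with sums of 989 to 4806 FPKM in controls and 3849 to 8309 FPKM with fibrils. Of these 9, 0 passed by limma and 2 with the block, against 0% and 0.111% of tested genes. Neuron markers were negative in 8 of 8 tested, against 53% of all tested genes, and 0 passed with or without the block. Fibroblast, mural and endothelial markers had 0 of 10 above the filter and summed to at most 0.911 FPKM. The part of these cells in the Gfap and Cd44 values was not tested.

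The tested genes most like Gfap over the 6 libraries, by Pearson r of log2(FPKM + 1), were Dlk2 (0.996), Pim3 (0.991) and Pinlyp (0.99). Pim3, a serine/threonine kinase, had 25.9, 20.1 and 22.7 FPKM in the controls against 46.0, 54.1 and 96.4 FPKM in the fibril libraries. Those most like Cd44 were the chemokine gene Ccl4 (0.97), the chemokine gene Cxcl3 (0.964) and the cytokine gene Il1b (0.96). Cxcl3, at 0 in each control, had 2.93, 13.7 and 1.41 FPKM in the fibril libraries, so it shared the order of replicates 2, 1 and 3 with Cd44, though fragments of related chemokine genes may be split between them. These are the highest of 10766 correlations over 6 libraries in 2 groups, and they describe only a shared order of values.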

How the data were processed

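RNA of 3 control and 3 fibril samples was made into strand-specific libraries, per the labels' protocols, and sequenced with a MiSeq instrument (series' design text). The authors deposited 1 table of FPKM with 1 column per library, per the file headers. Per the submitters' processing notes, Trimmomatic and FastQC were used, and neither has a version or role there. How fragments shared by near-identical genes were assigned, and with which aligner, quantifier and genome build, is not given in the sources used here. FPKM are not counts, so no count model was run and the depth is unknown. Columns were matched to samples by title, and 0 columns of per-sample values were unmatched.

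Values were analysed as log2(FPKM + 1) over 10766 genes (at least 3 libraries at 1 FPKM or above), and fold changes on this scale understate the change of low genes. Fibril and control libraries were compared with limma 3.58.1 in R 4.3.3 (two-sided, with a mean-variance trend, adjusted over all tested genes by Benjamini-Hochberg, threshold 0.05), which was checked on simulated data. Ratios were tested with exact permutation tests (scipy 1.17.1, pseudocount 0.1). Both groups carry replicate numbers 1 to 3. The deviations of same-numbered libraries from their group means correlated at 0.747, 0.364 and 0.216, all above the 0.1 set for treating the numbers as pairs, although the labels state no pairing and 2 of the 3 control libraries correlated more with another number (control replicate 3 with fibril replicate 2 at 0.5, control replicate 2 with fibril replicate 3 at 0.433). Replicate 1 stood apart in both groups, and deviations within a group sum to 0. Replicates 2 and 3 correlated positively in either matching, so these correlations cannot establish pairing. Values with the number as a block are given as well, as an alternative. No pair of libraries held the same values throughout.

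The 9 genes and the 16 other gene lists were chosen with earlier results of these data known. Genes named are the 9, up to 4 per list with the smallest limma p, the partners in the ratios, and the 3 most correlated with Gfap and with Cd44; others, such as members at 0, were chosen after their values were seen.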

Additional observations from a re-analysis of the deposited data

How the results depend on the processing

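All 9 genes stayed above an adjusted p of 0.05 by limma in each of 18 other settings (other pseudocounts, no filter, quantile normalization, scaling without mitochondrial genes, no trend, the replicate block, replicates 2 and 3 only, each library left out, and 4 combinations with the block chosen after the data were seen). In these settings the log2 difference ran from 1.35 to 3.67 for Gfap, 0.68 to 1.92 for Cd44, 0.14 to 0.89 for Vim, -2.15 to -0.73 for Sox9, -1.25 to -0.29 for S100b and -1.08 to -0.19 for Fabp7, always in the direction reported. The block alone, the filter and the trend change p-values and cannot change these differences. Leaving out 1 library, Nes ran from -0.11 (without fibril replicate 3) to 0.97, Aldoc from -0.18 (without fibril replicate 3) to 0.52, and Clu from -0.63 (without fibril replicate 3) to 1.30. Aldoc turned to -0.028 when scaled without mitochondrial genes, with or without the block; that scaling moved the median of all genes to -0.30, so Aldoc was 0.27 above it. Clu turned to -0.21 with a pseudocount of 0.1 (with or without the block) and -0.12 without control replicate 1. The median of the intermediate filament family turned to -0.13 when scaled without mitochondrial genes and to -0.058 without fibril replicate 3.

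Over all genes, 0 passed in either direction by limma (433 at an unadjusted p under 0.05). The replicate block gave 12 higher, the fit without a trend 1, and leaving out 1 library 0 to 3 higher (3 without fibril replicate 3) and 0 lower. The block gave 1 higher when scaled without mitochondrial genes, 13 higher and 2 lower with quantile normalization, 5 higher with a pseudocount of 0.1 and 3 with a pseudocount of 5. Over 7 other settings each, the log2 ratio differences ran from 1.98 to 3.84 (Gfap to Vim, exact permutation p = 0.2 in each), -1.07 to -0.85 (Aldoc to Aldoa), -2.46 to -1.23 (Sox9 to Sox10) and 0.76 to 1.80 (Cd44 to Vim). The replicate block cannot change these means with 3 numbers in both groups. With 1 library left out, the exact permutation test cannot go below p = 0.2. The depth is unknown, and in the replicate 1 libraries Nes (0.576 and 0.396 FPKM) and Clu (0.452 and 0 FPKM) lay near the 5th percentile of values above 0 (0.321 and 0.462 FPKM). Gfap in control replicate 1 (0.643 FPKM) was little above Nes there, so its replicate 1 ratio of 5.74 rests on a low control value.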
